A study of Mus musculus with 6 samples.

Results

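The genes described here are 41 members of glycolysis and of the response to hypoxia, measured by RNA-Seq in mouse embryonic fibroblasts (MEFs) after knockdown of *Yme1l1*, the gene of the mitochondrial protease YME1L, by siRNA. The members are glucose and lactate transporters, glycolytic enzymes, the PFKFB enzymes that regulate phosphofructokinase, PDH kinases, HIF subunits, prolyl hydroxylases and HIF targets. They were chosen for these roles by gene name, and every locus of the count table whose name is one of the 41 was used. This gave 42 of the 51499 loci, because *Aldoa* has a minor second locus, and all 42 were among the 14499 loci tested. WT MEFs received the control siRNA Scr or *Yme1l* siRNA for 72 h, in 3 cultures each. The methods describe WT MEFs isolated from *Yme1l* loxP/loxP animals. After transduction with Cre recombinase, clones with an intact *Yme1l* gene were identified as WT by genotyping. The sample titles say only WT MEF, so this origin is taken from the methods. For these cells the methods describe immortalization with SV40 large T antigen, the labels describe 3T3 cells, and the age and strain of the animals are not given in the sources used here. By the methods, cells were kept in a medium rich in glucose and, unless stated otherwise, grew to confluency over the 72 h without a change of medium. All 6 libraries therefore share the immortalized background and the culture medium. They also share the loxP alleles if they are the WT MEFs that the methods describe. No culture was exposed to low oxygen on purpose as far as the labels say.

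Glycolysis splits glucose into pyruvate. Hexokinases trap glucose in the cell, phosphofructokinases commit it to the pathway, and lactate dehydrogenase turns the pyruvate into lactate, which leaves through monocarboxylate transporters. PDH kinases switch off pyruvate dehydrogenase and so limit the oxidation of pyruvate in mitochondria. The transcription factor HIF consists of an alpha subunit (HIF1α or HIF2α, encoded by *Hif1a* and *Epas1*) and ARNT. Prolyl hydroxylases (*Egln1* to *Egln3*) mark the alpha subunit for destruction when oxygen is present, and HIF raises the transcription of many glycolytic genes when oxygen is low. HIF is therefore set mainly at the level of the protein, and transcript levels do not report its activity directly.

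Levels are given as CPM, the counts of a locus relative to the library size scaled by edgeR's TMM method, and as mean ± SD with n = 3 cultures per group. Log2 fold changes compare Yme1l siRNA with Scr siRNA and carry the standard error (SE) of the fit. All adjusted p-values are from edgeR's quasi-likelihood test with Benjamini-Hochberg adjustment over the 14499 loci, and a locus under 0.05 is called higher or lower. The libraries held between 37260605 and 45205207 counts. *Yme1l1* was measured at 170.5, 171 and 171 CPM in the Scr siRNA cultures and at 31.6, 23.4 and 45.04 CPM in the Yme1l siRNA cultures. It was 5.12-fold lower (log2 fold change −2.36, SE 0.20, adjusted p = 3.87e-05), and the groups were far apart. The cells expressed the fibroblast genes *Col1a1*, *Col1a2*, *Fn1* and *Vim* at high levels, whereas *Thy1* was near 0 in both groups. Of the 9 fibroblast markers tested, 8 were lower after Yme1l siRNA, where 29.6% of all loci tested were called lower. *Vim* was not called, and the groups of *Twist1*, 1 of the 8, overlapped. The summed level of the list fell from a range of 34058 to 41237 CPM to a range of 18320 to 22751 CPM. The leukocyte markers *Ptprc*, *Adgre1*, *Itgam* and *Cd3e* were at or near 0, and the sum of the 6 leukocyte markers, mostly *Csf1r* and *Cd68*, was between 162 and 178 CPM in the Scr siRNA and between 241 and 254 CPM in the Yme1l siRNA cultures, with *Csf1r* called higher. The 6 epithelial markers summed to between 0.0924 and 0.194 CPM and to between 0.807 and 1.33 CPM, with *Krt8* called higher and *Epcam* and *Cdh1* under 1 CPM. The 5 endothelial markers summed to between 4.34 and 4.67 CPM and to between 7.41 and 8.50 CPM. Of the 4 tested, 3 were called higher, where 28.4% of all loci tested were called higher. *Pecam1* and *Cdh5* were under 1 CPM. The part of these marker changes in the other results was not tested, and in these bulk samples fewer cells of a type and less RNA per cell cannot be told apart.

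After Yme1l siRNA, glycolytic genes and HIF targets were called in both directions. Of the 42 loci, 9 were higher (21.4%), 17 were lower (40.5%) and 16 were not called, where 28.4% of all loci tested were called higher and 29.6% were called lower. With a log2 fold change of at least 0.5 in size, 6 were higher and 13 were lower, beside 18.2% and 19.1% of all loci tested. The 2 groups of cultures did not overlap in 27 of the 42 loci (64.3%), close to the 65.4% of all loci tested. The median log2 fold change was −0.15, with values from −2.65 to 1.58, against a median of 0.01 over all loci. That median was −0.09 without Scr siRNA replicate 1 and −0.20 without Yme1l siRNA replicate 3. The largest increase was that of *Hk2*, the inducible hexokinase, and the largest decreases were those of *Ankrd37*, *Car9* and *Ldhb*. The plot of log2 fold changes by role shows that 5 of the 8 role groups held loci called in both directions. Of the members, 15 share exon bases with a gene on the opposite strand, which matters where the partner is abundant. For 8 of these the partners stood under 2 CPM. The other 7 overlap *Senp1* (*Pfkm*), *Pitrm1* (*Pfkp*), *Spsb2* (*Tpi1*), *Iffo1* (*Gapdh*), *Apex2* (*Pfkfb1*), *Yod1* (*Pfkfb2*) and *Ufsp2* (*Ankrd37*).

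**Figure D1:**
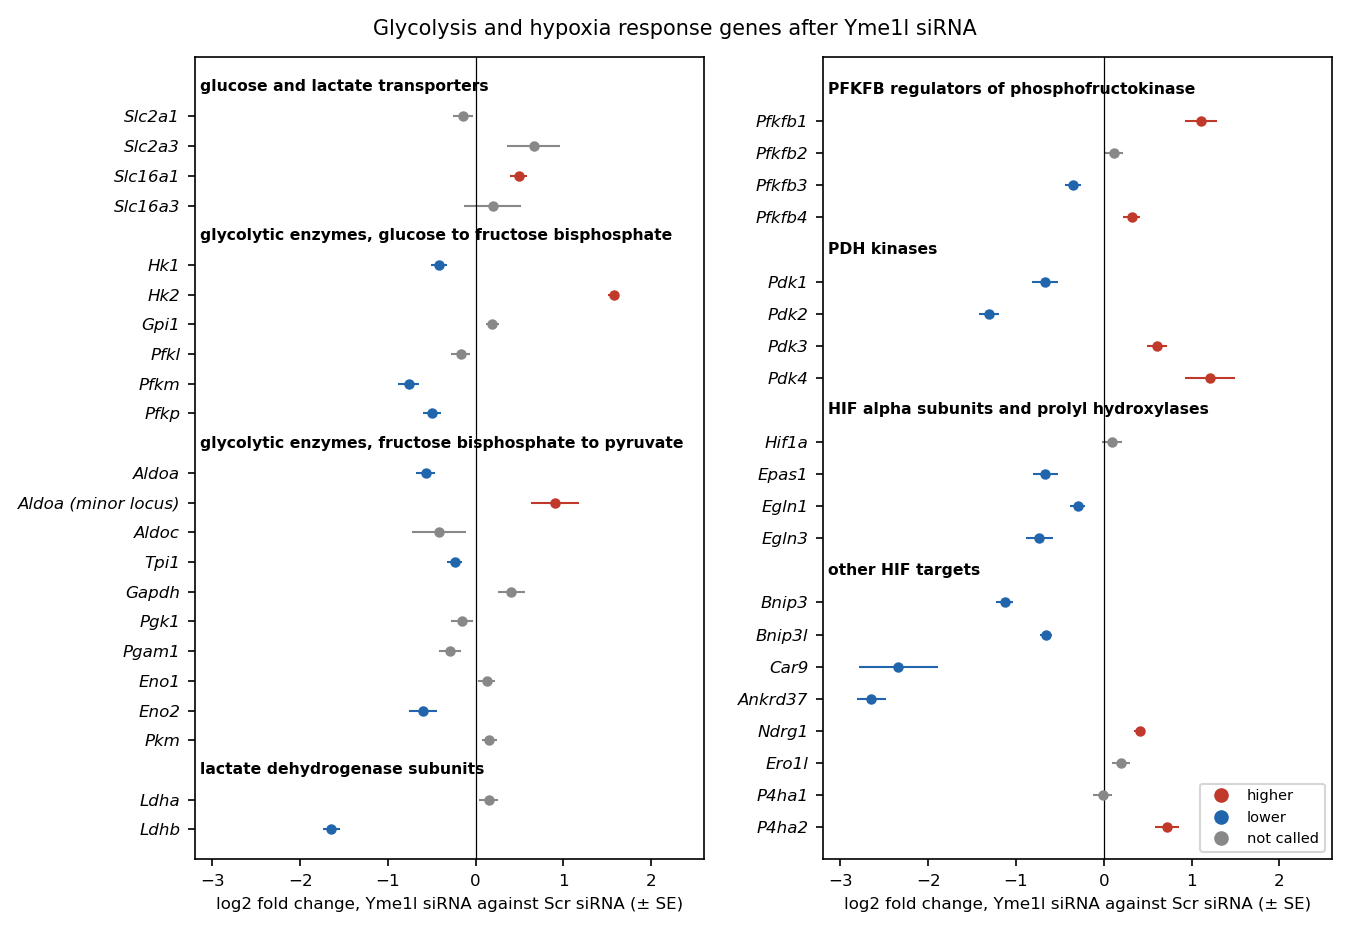
Log2 fold change (x axis, Yme1l siRNA against Scr siRNA, n = 3 cultures each) of each of the 42 member loci, by role; points are edgeR estimates, bars are ± 1 SE, red and blue are loci called higher and lower, and grey loci were not called. *Hk2* lies furthest right at 1.58 and *Ankrd37* furthest left at −2.65.

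Promoter sequences of 3 members that fell and 2 that rose are shown here because HIF binds DNA at a core of ACGTG or GCGTG, and these cores lay in windows of members of both directions. RefSeq windows from 250 bases before to 50 bases after each annotated start (GRCm38.p6) were searched for ACGTG and GCGTG on both strands. Of the 41 members, 37 had at least 1 such window in the set searched, *Ero1l* under its name *Ero1a*, with 56 windows in all. No window was found for *Slc2a3*, *Epas1*, *Bnip3l* and *Ndrg1*. At least 1 core lay in 44 of the 56 windows (78.6%), in 7 of 10 windows (70.0%) of members called higher, in 17 of 24 (70.8%) of those called lower and in 20 of 22 (90.9%) of those not called. Some members have several windows, and some of these overlap. Counted by gene, a core lay in at least 1 window of 7 of 7 members called higher. The same held for 13 of 15 members called lower and 14 of 15 not called. Over all 32851 RefSeq windows the share of windows with a core was 43.8%. Both cores contain the letters CG, and these windows were not matched to those of the members for CG content. The part of CG content in the difference was not tested. Each sequence is printed from 5′ to 3′ on the strand of the gene, with the cores in capitals. On the printed strand a core of the other strand reads CACGT or CACGC, and CACGTG holds the first core on both strands.
*Ankrd37* (chr8:45999801-46000100, minus strand): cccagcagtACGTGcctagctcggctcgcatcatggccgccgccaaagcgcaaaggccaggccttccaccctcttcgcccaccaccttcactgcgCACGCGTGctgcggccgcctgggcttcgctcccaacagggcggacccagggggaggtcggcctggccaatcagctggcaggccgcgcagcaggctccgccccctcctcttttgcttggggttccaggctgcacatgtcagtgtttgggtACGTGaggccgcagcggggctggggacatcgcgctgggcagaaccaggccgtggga
*Bnip3* (chr7:138909457-138909756, minus strand): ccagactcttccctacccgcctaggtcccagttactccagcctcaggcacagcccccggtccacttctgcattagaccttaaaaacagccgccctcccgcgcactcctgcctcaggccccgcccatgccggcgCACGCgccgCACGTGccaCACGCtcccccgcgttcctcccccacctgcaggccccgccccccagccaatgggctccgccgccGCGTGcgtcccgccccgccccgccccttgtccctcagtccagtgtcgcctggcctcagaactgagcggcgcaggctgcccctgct
*Car9* (chr4:43506776-43507075, plus strand): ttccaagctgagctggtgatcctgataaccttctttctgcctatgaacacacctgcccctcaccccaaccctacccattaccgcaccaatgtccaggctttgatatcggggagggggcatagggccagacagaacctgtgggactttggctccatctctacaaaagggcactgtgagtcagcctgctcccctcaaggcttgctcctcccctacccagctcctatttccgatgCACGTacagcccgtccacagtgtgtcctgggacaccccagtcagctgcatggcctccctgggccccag
*Hk2* (chr6:82774405-82774704, minus strand): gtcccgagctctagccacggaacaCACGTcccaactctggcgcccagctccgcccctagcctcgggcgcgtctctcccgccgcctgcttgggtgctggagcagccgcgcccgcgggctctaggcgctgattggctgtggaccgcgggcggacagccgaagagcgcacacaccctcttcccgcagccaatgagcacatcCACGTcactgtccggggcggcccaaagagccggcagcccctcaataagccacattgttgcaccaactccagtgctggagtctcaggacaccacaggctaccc
*P4ha2* (chr11:54100674-54100973, plus strand): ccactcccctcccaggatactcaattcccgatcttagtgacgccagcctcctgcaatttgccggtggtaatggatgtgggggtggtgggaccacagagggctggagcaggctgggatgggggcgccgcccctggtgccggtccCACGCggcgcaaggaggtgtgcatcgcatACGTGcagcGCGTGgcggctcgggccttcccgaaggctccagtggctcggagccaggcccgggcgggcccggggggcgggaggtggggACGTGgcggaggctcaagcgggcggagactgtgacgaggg
The *Ankrd37* window held 4 cores and the *Bnip3* window 5, of which the 2 that begin 108 and 107 bases before the start are the same CACGTG. The *Car9* window held 1 core, 18 bases before the start. The windows of the members that rose, *Hk2* and *P4ha2*, held 2 and 4 cores. These are matches of letters and not measured binding sites. The printed windows are examples, each with at least 1 core, and were not picked by the size of the change. *Ldhb* and *Pdk2* fell more than *Bnip3*, and *Pdk4* and *Pfkfb1* rose more than *P4ha2*. The windows of *Tpi1* and *Eno2*, which were also lower, held no core.

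Glucose enters fibroblasts mainly through GLUT1 (*Slc2a1*), and the level of its transcript was not called. *Slc2a1* (chr4:119108711-119137983 on GRCm38, as for all genes given here), the member with the highest level per length in this group, was at 134, 136 and 179 CPM in the Scr siRNA cultures and at 134, 135 and 136 CPM in the Yme1l siRNA cultures (log2 fold change −0.15, SE 0.11, adjusted p = 0.29). One Scr siRNA culture lay above all others, and the groups overlapped. GLUT3 (*Slc2a3*) was low, at 1.43 ± 0.442 and 2.27 ± 0.704 CPM, and was not called (log2 fold change 0.66, SE 0.30, adjusted p = 0.0881). MCT1 (*Slc16a1*), which carries lactate and pyruvate across the plasma membrane, rose from 83.6 ± 10.7 to 117 ± 5.53 CPM (log2 fold change 0.49, SE 0.1, adjusted p = 0.00307), with groups that did not overlap. MCT4 (*Slc16a3*), the transporter known for lactate export under hypoxia, stood near 1 CPM in both groups (log2 fold change 0.20, SE 0.32, adjusted p = 0.626). Per kb of exon, *Slc2a1* was at 99.5% ± 0.1998 of the summed *Slc2a1* and *Slc2a3* level in the Scr siRNA cultures. *Slc16a1* was at 98.9% ± 0.609 of the summed *Slc16a1* and *Slc16a3* level. Transporters outside the members, such as *Slc2a10* at 21.6 CPM in the Scr siRNA cultures, are not in these sums.

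The first steps of glycolysis held the largest increase of the members, in *Hk2*, beside decreases of *Hk1*, *Pfkm* and *Pfkp*. *Hk2* (chr6:82725025-82774454) encodes a hexokinase that binds to mitochondria and is known to be induced by growth signals and hypoxia. It was at 25.9, 24.4 and 25.6 CPM in the Scr siRNA cultures and at 76.4, 73.6 and 76.4 CPM in the Yme1l siRNA cultures. All 3 knockdown cultures lay near 2.98 times the control level (log2 fold change 1.58, SE 0.062, adjusted p = 3.26e-06). *Hk1*, the hexokinase of most tissues, fell from 296 ± 23.8 to 222 ± 19.1 CPM (log2 fold change −0.41, SE 0.09, adjusted p = 0.00432), and the groups did not overlap.

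The hexokinase transcripts therefore shifted in proportion. *Hk2* made up 11.2%, 11.3% and 10.2% of the summed *Hk1* and *Hk2* level per kb of exon in the Scr siRNA cultures and 33.2%, 33.9% and 31.03% in the Yme1l siRNA cultures. *Hk1* remained the larger part in every culture. Exact two-sided permutation tests of such shares, 3 cultures against 3, cannot go below p = 0.1, the value found here (0.153 adjusted over 23 shares). Of the 23 shares in 9 families, 15 reached this smallest p, and the shares within a family depend on each other. For comparison, the groups did not overlap in 65.4% of all loci tested.

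Phosphofructokinase, the committed step, has the liver, muscle and platelet subunits *Pfkl*, *Pfkm* and *Pfkp*. *Pfkm* (chr15:98092589-98132451) was at 161, 155 and 152 CPM in the Scr siRNA cultures and at 88.1, 77.8 and 111 CPM after Yme1l siRNA. It was 1.69-fold lower (log2 fold change −0.76, SE 0.12, adjusted p = 0.000815), with every knockdown culture below every control. *Pfkp* (chr13:6579768-6648777) was at 48.6, 44.3 and 50.1 CPM and at 33.6, 38.1 and 29.3 CPM, a decrease without overlap (log2 fold change −0.50, SE 0.10, adjusted p = 0.00305). *Pfkl* was not called (log2 fold change −0.17, SE 0.11, adjusted p = 0.192), and its groups overlapped. Within the family, the share of *Pfkl* per kb was 43.6% ± 1.697 in the Scr siRNA and 53.6% ± 0.894 in the Yme1l siRNA cultures, whereas that of *Pfkm* was 52.4% ± 1.36 and 42.4% ± 1.91 (exact permutation p = 0.1 for each). Per kb, the larger subunit transcript was thus *Pfkm* in all 3 control cultures and *Pfkl* in all 3 knockdown cultures. Without division by exon length, *Pfkl* had more counts than *Pfkm* in every culture. *Pfkm* shares exon bases with *Senp1*, which lies on the opposite strand and was higher (log2 fold change 0.71). *Pfkp* shares exon bases with *Pitrm1*, also on the opposite strand. *Pitrm1* was more abundant than *Pfkp*, at 119 CPM in the Scr siRNA and 129 CPM in the Yme1l siRNA cultures (log2 fold change 0.12). How the counting treated strand is not given in the sources used here.

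Glucose phosphate isomerase (*Gpi1*, chr7:34201330-34230336), which links the hexokinases to phosphofructokinase, had the highest level per length of this group. It was at 359, 317 and 304 CPM in the Scr siRNA cultures and at 366, 381 and 372 CPM in the Yme1l siRNA cultures. The groups did not overlap, but the difference was not called (log2 fold change 0.19, SE 0.078, adjusted p = 0.0643). DESeq2 and 3 other settings did call it.

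Of the 10 loci from fructose bisphosphate to pyruvate, 6 were not called. *Pkm* (chr9:59656368-59679375), pyruvate kinase, had the highest level per length of all members. It was at 2536, 2282 and 2259.7 CPM in the Scr siRNA cultures and at 2615, 2473 and 2802 CPM in the Yme1l siRNA cultures (log2 fold change 0.16, SE 0.088, adjusted p = 0.158), and the groups overlapped. *Pgk1* (log2 fold change −0.15, SE 0.13), *Pgam1* (log2 fold change −0.29, SE 0.12), *Eno1* (log2 fold change 0.12, SE 0.098) and the scarce *Aldoc* (log2 fold change −0.42, SE 0.31) were not called either, and their groups overlapped.

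Apart from the minor *Aldoa* locus, the called loci of these steps were lower. *Aldoa* (chr7:126795234-126800751), the aldolase of muscle and fibroblasts, was at 1007, 887 and 793 CPM in the Scr siRNA cultures and at 586, 553 and 669.9 CPM in the Yme1l siRNA cultures. It was 1.49-fold lower, and the groups did not overlap (log2 fold change −0.57, SE 0.11, adjusted p = 0.00236). The minor *Aldoa* locus, a separate gene entry upstream of the first (19, 29 and 30 counts in the Scr siRNA and 58, 51 and 49 counts in the Yme1l siRNA cultures), was higher (log2 fold change 0.91, SE 0.27, adjusted p = 0.0189). That call ended in 2 of 6 cases when 1 culture was left out, with an adjusted p of 0.0702 without Scr siRNA replicate 1 and of 0.0670 without Yme1l siRNA replicate 1. Its counts were too few to alter the sum of both loci noticeably. *Eno2* (chr6:124760053-124769673), the enolase named for neurons, was at 36.3, 34.1 and 40.9 CPM and at 21.6, 31.4 and 20.3 CPM. It was lower (log2 fold change −0.60, SE 0.16, adjusted p = 0.0111), although 1 knockdown culture came near the lowest control. *Tpi1*, triosephosphate isomerase, fell from 834 ± 45.9 to 707 ± 50.6 CPM (log2 fold change −0.24, SE 0.083, adjusted p = 0.0356). Leaving out 1 culture at a time ended that call in 4 of 6 cases, with adjusted p up to 0.123.

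*Gapdh*, a common reference transcript, is uncertain in this table. Its locus was at 97.2, 80.9 and 73.9 CPM in the Scr siRNA and 115, 87.1 and 132 CPM in the Yme1l siRNA cultures (log2 fold change 0.41, SE 0.16, adjusted p = 0.0515), below *Tpi1* and *Pgk1*, its neighbours in the pathway, in every culture. Another 54 loci with near-identical copies of the *Gapdh* sequence held 54.0% of the summed counts. The copies held 1197, 1057 and 1117 counts in the Scr siRNA cultures and 1265, 23033 and 1295 counts in the Yme1l siRNA cultures. A single locus, the pseudogene *Gm7336*, had 22316 of the 23033 counts in Yme1l siRNA replicate 2 and between 435 and 562 in the other cultures. With the copies added, a setting chosen after seeing the data, the log2 fold change was 1.46 and was called, with most of the added counts from 1 culture. Without Yme1l siRNA replicate 2, the locus itself was called higher (log2 fold change 0.57). The copies of other members held at most 7.04% of the summed counts, in *Bnip3l*.

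The summed level of the glycolytic enzymes did not differ beyond the spread of the cultures. The 17 enzymes and lactate dehydrogenase subunits summed to 9577, 8676 and 8238 CPM in the Scr siRNA cultures and to 8175, 8055 and 9293 CPM in the Yme1l siRNA cultures. The groups overlapped, and the mean changed by −3.66% (exact two-sided permutation p = 0.5, with 0.1 the smallest possible). *Gapdh* entered this sum by its own locus only. Its near-identical copies, with 23033 counts in Yme1l siRNA replicate 2 and 1057 to 1295 in the other cultures, were left out. A sum with the copies was not tested.

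Lactate dehydrogenase is a tetramer of the subunits encoded by *Ldha*, known for favouring lactate formation, and *Ldhb*, known for favouring lactate use. *Ldha* (chr7:46841475-46855627) was at 844, 772 and 689 CPM in the Scr siRNA cultures and at 834, 764 and 954 CPM in the Yme1l siRNA cultures, and was not called (log2 fold change 0.15, SE 0.11, adjusted p = 0.275). *Ldhb* (chr6:142490249-142507957) was at 228, 218 and 191 CPM in the Scr siRNA cultures and at 61.7, 67.9 and 73.6 CPM in the Yme1l siRNA cultures. It fell 3.13-fold, and the highest knockdown culture was far below the lowest control (log2 fold change −1.65, SE 0.096, adjusted p = 8.28e-06). The share of *Ldhb* in the summed level per kb was 36.2%, 37.3% and 36.9% in the Scr siRNA cultures and 13.5%, 15.8% and 13.98% in the Yme1l siRNA cultures (exact permutation p = 0.1). The *Ldhb* share thus lay in a narrow range within each group and differed widely between them.

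**Figure D2:**
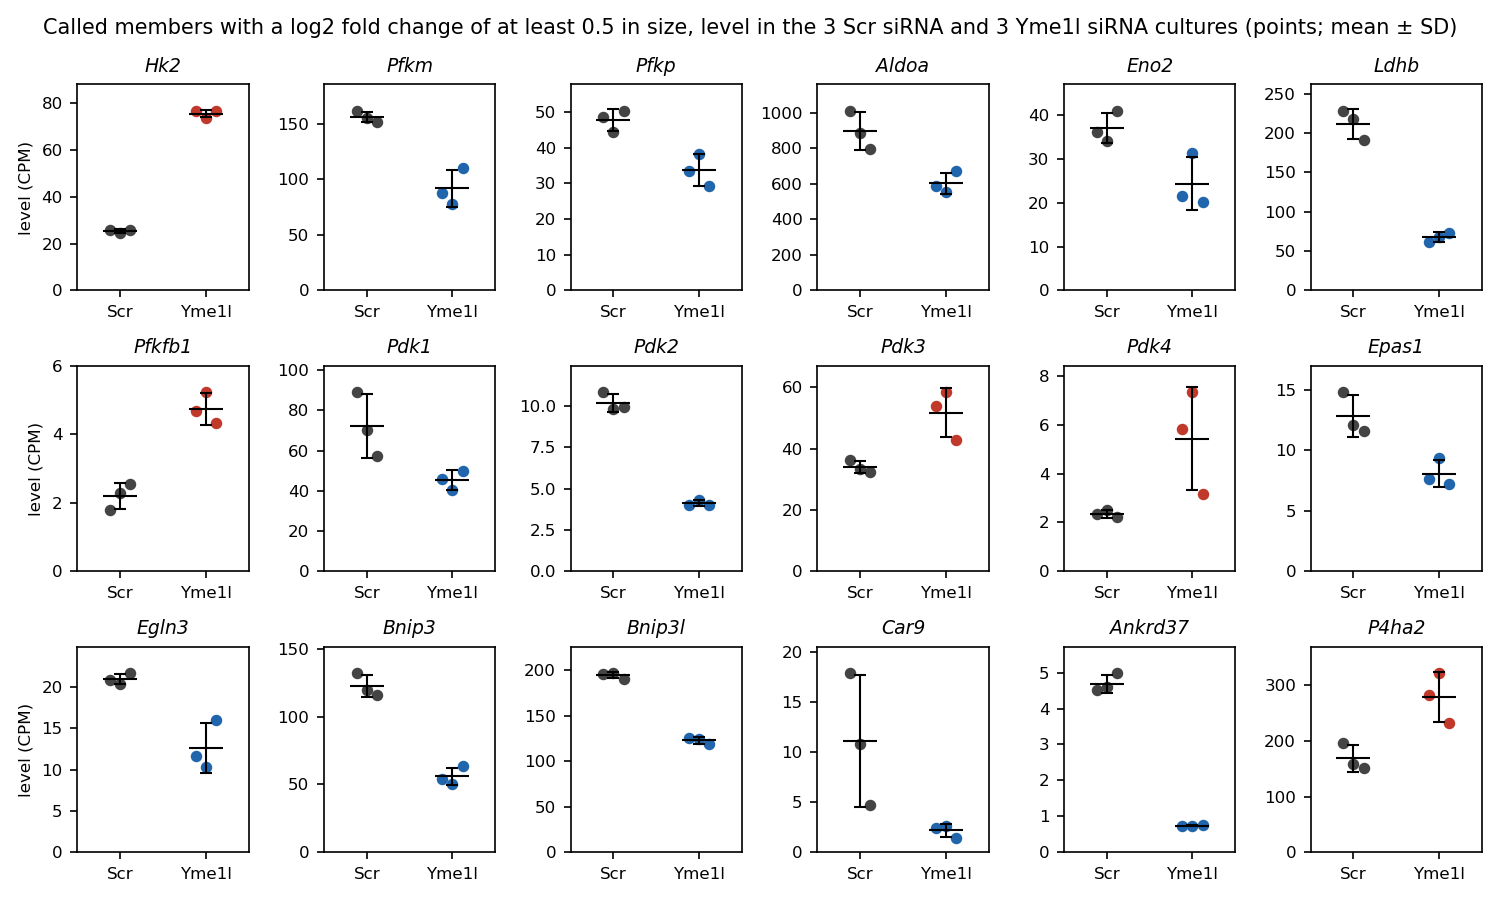
Level in CPM (y axis, from 0) of the 18 members called higher or lower with a log2 fold change of at least 0.5 in size, in the 3 Scr siRNA and 3 Yme1l siRNA cultures; points are cultures, bars are mean ± SD, and the minor *Aldoa* locus is left out. *Hk2*, *Ldhb*, *Pdk2* and *Ankrd37* show wide gaps between the groups, whereas the *Car9* controls range from 4.72 to 17.8 CPM.

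The PFKFB enzymes make and break fructose 2,6-bisphosphate, the main activator of phosphofructokinase, and their transcripts moved apart. *Pfkfb1* (chrX:150588229-150643878), the form known from liver, was at 1.78, 2.300 and 2.54 CPM in the Scr siRNA cultures and at 4.67, 5.22 and 4.32 CPM in the Yme1l siRNA cultures. It was 2.15-fold higher from a low level (log2 fold change 1.10, SE 0.18, adjusted p = 0.00101). Its exons overlap *Apex2* on the opposite strand, which was also higher (log2 fold change 0.47). *Pfkfb4* (chr9:108991778-109032228), of which the level per length was the highest of this group, was at 24.04, 26.3 and 29.5 CPM and at 31.9, 36.5 and 31.1 CPM. The increase was small (log2 fold change 0.32, SE 0.099, adjusted p = 0.0233) and was no longer called in 3 of 6 cases when 1 culture was left out. *Pfkfb3*, a HIF target with high kinase activity, fell from 41.05 ± 3.01 to 32.2 ± 2.89 CPM (log2 fold change −0.35, SE 0.09, adjusted p = 0.01). The locus of *Pfkfb2*, which the table joins with *Gm29427*, was not called (log2 fold change 0.11, SE 0.10, adjusted p = 0.362).

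All 4 PDH kinases were called, 2 in each direction, and none of their groups overlapped, where 28.4% of all loci tested were called higher, 29.6% were called lower and 65.4% did not overlap. *Pdk1* (chr2:71873224-71903858), the kinase best known as a HIF1 target, was at 89.02, 70.4 and 57.4 CPM in the Scr siRNA cultures and at 46.1, 40.3 and 49.9 CPM in the Yme1l siRNA cultures. It was lower (log2 fold change −0.67, SE 0.15, adjusted p = 0.00533), with controls that differed widely among themselves. *Pdk2* (chr11:95026258-95041354) was at 10.8, 9.81 and 9.95 CPM and at 4.01, 4.33 and 4.03 CPM. Its 2.47-fold decrease was even across the cultures (log2 fold change −1.31, SE 0.12, adjusted p = 4.22e-05).

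*Pdk3* (chrX:93764607-93832201), the member with the highest level per length among the PDH kinases, was at 36.2, 33.4 and 32.4 CPM in the Scr siRNA cultures and at 53.9, 58.3 and 42.9 CPM in the Yme1l siRNA cultures (log2 fold change 0.60, SE 0.11, adjusted p = 0.00191). *Pdk4* (chr6:5483351-5496309), known for its induction by fasting and fatty acids, was at 2.33, 2.52 and 2.204 CPM and at 5.82, 7.32 and 3.16 CPM (log2 fold change 1.21, SE 0.28, adjusted p = 0.00642). Both were higher, and 1 knockdown culture, replicate 3, rose less than the others in both genes. The share of *Pdk3* in the summed PDK level per kb was 50.4% ± 2.78 in the Scr siRNA and 69.7% ± 3.26 in the Yme1l siRNA cultures. The share of *Pdk1* was 34.8% ± 3.81 and 20.6% ± 4.46, and that of *Pdk2* 12.2% ± 0.864 and 4.54% ± 0.426 (exact permutation p = 0.1 for each). The order of *Pdk3* and *Pdk1* depends on the division by exon length. Without it, *Pdk1* had more counts than *Pdk3* in every Scr siRNA culture and in Yme1l siRNA replicate 3. In the other Yme1l siRNA cultures *Pdk1* had fewer counts than *Pdk3*. The summed level of the 4 kinases in CPM did not differ beyond the spread (exact permutation p = 0.4).

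**Figure D3:**
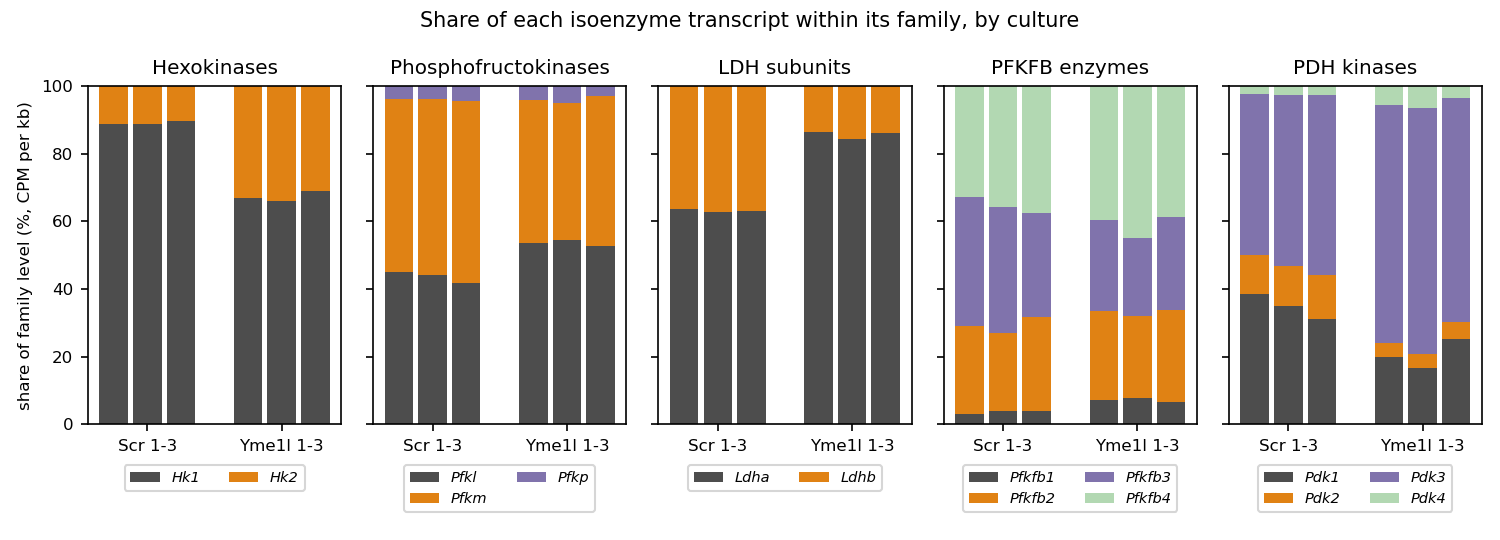
Share of each transcript (y axis, % of the summed CPM per kb of exon of its family) in each of the 3 Scr siRNA and 3 Yme1l siRNA cultures, 1 bar per culture, for 5 families. The *Pfkfb2* level is that of its locus joined with *Gm29427*, divided by the exon length of *Pfkfb2* alone, and it enters every PFKFB share. *Hk2* and *Pdk3* take a larger and *Ldhb*, *Pfkm*, *Pdk1* and *Pdk2* a smaller share in every Yme1l siRNA culture than in any Scr siRNA culture. Over all 9 families, 15 of 23 shares separated in this way, where 65.4% of all loci tested did not overlap between groups.

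Among the HIF subunits and the enzymes that control them, 3 of the 4 members were lower, where 29.6% of all loci tested were called lower, and *Hif1a* was not called. The *Hif1a* locus (chr12:73901375-73947530 for the gene itself), which the table joins with *Snapc1* and AC124712.1, was at 277, 256 and 217 CPM in the Scr siRNA cultures and at 283, 235 and 282 CPM in the Yme1l siRNA cultures (log2 fold change 0.09, SE 0.11, adjusted p = 0.498). *Epas1* (chr17:86753700-86833410) was at 14.8, 12.1 and 11.6 CPM and at 7.598, 9.34 and 7.24 CPM. It was 1.59-fold lower, without overlap (log2 fold change −0.67, SE 0.14, adjusted p = 0.0038). *Egln3* (chr12:54178981-54203860), a prolyl hydroxylase gene that is itself a HIF target, was at 20.8, 20.4 and 21.7 CPM and at 11.6, 10.3 and 15.97 CPM. It was 1.66-fold lower (log2 fold change −0.73, SE 0.15, adjusted p = 0.00336), and the controls lay close together. *Egln1* (chr8:124908587-124949324), the main oxygen sensor of the family and the member with the highest level per length that the table resolves here, was at 73.8, 65.8 and 63.5 CPM and at 55.1, 50.8 and 59.7 CPM. Its decrease was small (log2 fold change −0.29, SE 0.086, adjusted p = 0.0174) and was no longer called in 3 of 6 cases when 1 culture was left out.

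The other HIF targets among the members held the 2 largest decreases of all members, together with 2 increases. *Ankrd37* (chr8:45996902-46005707), an ankyrin repeat gene known mainly as a HIF1 target, was at 4.504, 4.600 and 4.98 CPM in the Scr siRNA cultures and at 0.744, 0.736 and 0.759 CPM in the Yme1l siRNA cultures. It was 6.27-fold lower (log2 fold change −2.65, SE 0.17, adjusted p = 1.16e-05), with little spread within either group. Its exons overlap those of *Lrp2bp* and *Ufsp2* on the opposite strand. *Ufsp2* was more abundant, at 53.5 CPM in the Scr siRNA cultures, and had a log2 fold change of −0.42. *Car9* (chr4:43506966-43513729), a carbonic anhydrase at the cell surface that is widely used to mark hypoxic cells, was at 17.8, 10.8 and 4.72 CPM in the Scr siRNA cultures and at 2.48, 2.62 and 1.47 CPM in the Yme1l siRNA cultures. It was 5.07-fold lower (log2 fold change −2.34, SE 0.45, adjusted p = 0.00222). Its exons overlap *Gm12454* on the opposite strand, which stood at 1.58 and 1.86 CPM in the groups. The highest and lowest controls lay further apart than the lowest control and the knockdown cultures, and without single cultures the log2 fold change ranged from −2.71 to −1.83.

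*Bnip3* (chr7:138890836-138909519) and *Bnip3l* (chr14:66985239-67008877), which encode mitophagy receptors of the outer mitochondrial membrane, fell together. *Bnip3* was at 132, 119.6 and 116 CPM in the Scr siRNA cultures and at 54.04, 50.7 and 63.2 CPM in the Yme1l siRNA cultures (log2 fold change −1.13, SE 0.098, adjusted p = 3.87e-05). *Bnip3l* was at 196, 196 and 191 CPM and at 126, 124 and 119 CPM (log2 fold change −0.66, SE 0.064, adjusted p = 6.32e-05). Both decreases were much larger than the spread of the cultures, 2.19-fold for *Bnip3* and 1.58-fold for *Bnip3l*.

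Within this role group of other HIF targets, the members that rose were *P4ha2* and *Ndrg1*. *P4ha2* (chr11:54100095-54131665), a subunit of the prolyl hydroxylase that modifies collagen, was at 195, 158 and 150.3 CPM in the Scr siRNA cultures and at 282, 320.2 and 231 CPM in the Yme1l siRNA cultures. It was 1.65-fold higher (log2 fold change 0.72, SE 0.14, adjusted p = 0.00212), while the collagen transcripts *Col1a1*, *Col1a2* and *Col3a1* among the fibroblast markers were lower. Its paralogue *P4ha1* (chr10:59323296-59373304), the member of this group with the highest level per length, was at 603, 529 and 499 CPM and at 553, 589 and 474 CPM. The groups overlapped (log2 fold change −0.01, SE 0.11, adjusted p = 0.926). *Ndrg1*, a gene induced by hypoxia and differentiation, rose from 167 ± 2.09 to 222 ± 6.12 CPM (log2 fold change 0.41, SE 0.063, adjusted p = 0.000672). *Ero1l*, the oxidase that forms disulfide bonds in the endoplasmic reticulum, was not called (log2 fold change 0.20, SE 0.10, adjusted p = 0.134).

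Genes of the same pathways outside the members, listed for their known roles, were also called in both directions. Of 30 other HIF targets, all tested, 8 were higher (26.7%, against 28.4% of all loci) and 7 were lower (23.3%, against 29.6% of all loci), with a median log2 fold change of 0.09. By the size of the change, *Ddit4*, an inhibitor of mTORC1 that hypoxia and other stresses induce, led the decreases with 290.4, 324 and 390.4 CPM in the Scr siRNA cultures and 71.3, 67.8 and 98.6 CPM in the Yme1l siRNA cultures (log2 fold change −2.08, SE 0.16, adjusted p = 2.63e-05). *Angptl4*, a secreted inhibitor of lipoprotein lipase, rose from 0.987 ± 0.295 to 3.99 ± 1.17 CPM (log2 fold change 2.01, SE 0.29, adjusted p = 0.000512). *Tfrc*, the transferrin receptor, rose from 114 ± 11.5 to 364 ± 16.7 CPM (log2 fold change 1.68, SE 0.089, adjusted p = 7.21e-06). None of these 3 genes overlapped between groups. *Vegfa*, the angiogenic factor often read as a HIF target and named here outside the rule on size, was at 282 ± 14.4 and 271 ± 14.98 CPM and was not called (log2 fold change −0.06, SE 0.074, adjusted p = 0.527).

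Of 14 other HIF pathway components, 13 were tested, 2 were higher (15.4%, against 28.4% of all loci) and 6 were lower (46.2%, against 29.6% of all loci). *Arnt*, the partner of both alpha subunits, was at 127, 109 and 124 CPM in the Scr siRNA cultures and at 63.7, 50.2 and 65.2 CPM in the Yme1l siRNA cultures (log2 fold change −1.01, SE 0.11, adjusted p = 0.000127). Its level in the knockdown cultures was near the middle between 0 and the controls. *Vhl*, the ligase subunit that recognizes hydroxylated HIF, fell from 62.4 ± 0.3097 to 46.3 ± 1.72 CPM (log2 fold change −0.43, SE 0.061, adjusted p = 0.000435), and its partner *Eloc* from 107 ± 5.88 to 72.1 ± 6.52 CPM (log2 fold change −0.57, SE 0.085, adjusted p = 0.000605). The coactivator *Crebbp* rose from 49.2 ± 3.45 to 68.4 ± 4.29 CPM (log2 fold change 0.48, SE 0.079, adjusted p = 0.001).

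**Figure D4:**
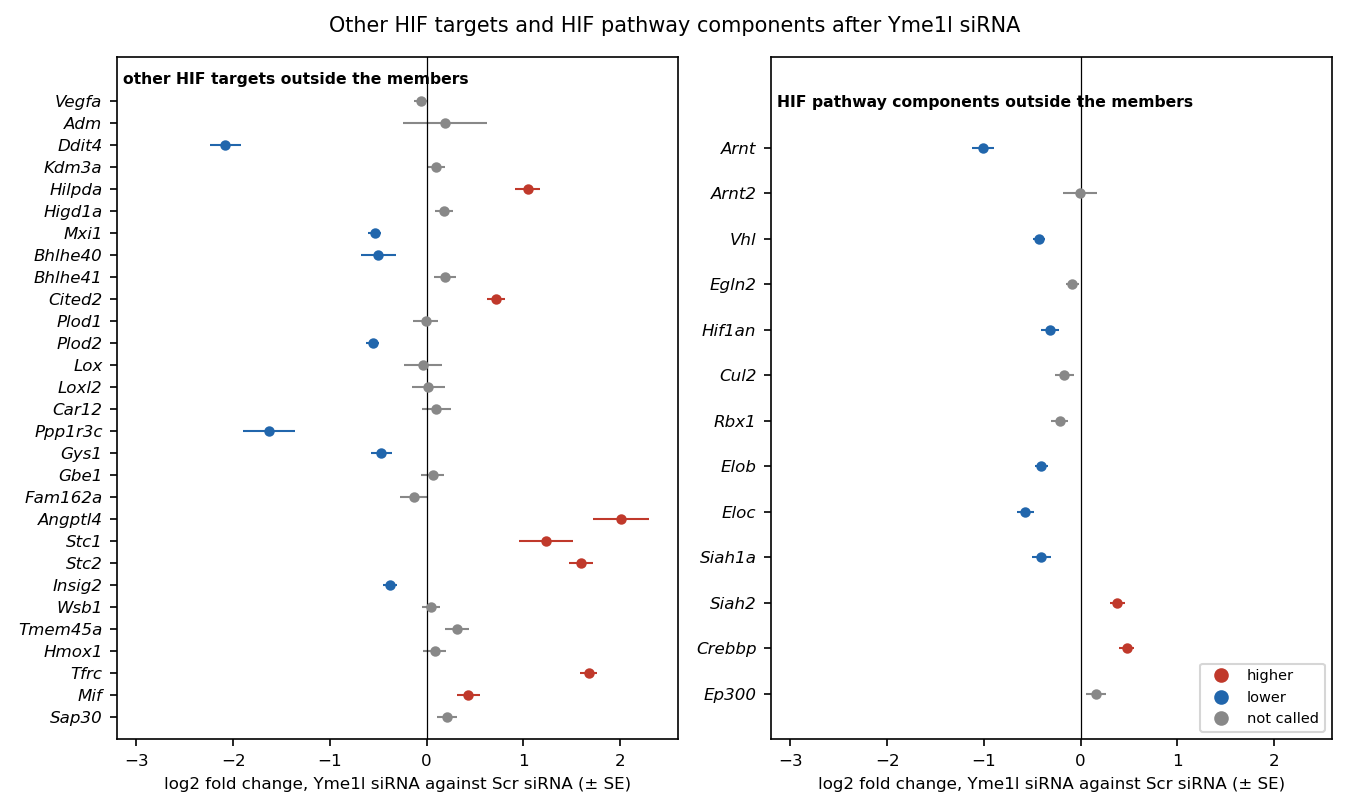
Log2 fold change (x axis, Yme1l siRNA against Scr siRNA, n = 3 cultures each; points are edgeR estimates, bars ± 1 SE) of other HIF targets on the left and 13 tested HIF pathway components on the right; red and blue are genes called higher and lower, and grey genes were not called. Among the targets, *Ddit4* at −2.08 and *Angptl4* at 2.01 mark the ends of the range, and *Arnt* at −1.01 is the lowest component.

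Of 43 other genes that handle glucose and pyruvate, 34 were tested, 11 were higher (32.4%, against 28.4% of all loci) and 9 were lower (26.5%, against 29.6% of all loci), with a median log2 fold change of 0.01. *Hkdc1*, a further hexokinase, rose from 4.82 ± 0.1400 to 13.8 ± 1.55 CPM (log2 fold change 1.52, SE 0.12, adjusted p = 2.55e-05). *Eno3*, the muscle enolase, rose from 15.6 ± 0.692 to 32.9 ± 4.62 CPM (log2 fold change 1.08, SE 0.11, adjusted p = 8.35e-05), in the opposite direction to *Eno2*. *Pcx*, pyruvate carboxylase, which feeds pyruvate into the citric acid cycle as oxaloacetate, rose from 9.31 ± 0.876 to 17.9 ± 2.59 CPM (log2 fold change 0.94, SE 0.13, adjusted p = 0.000385). *G6pdx*, the first enzyme of the pentose phosphate pathway, fell from 175 ± 7.14 to 98.3 ± 16.3 CPM (log2 fold change −0.83, SE 0.12, adjusted p = 0.000416). Over the 3 lists, 21 of the 77 genes tested were higher (27.3%) and 22 were lower (28.6%), close to the shares of all loci.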

How the data were processed

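RNA-Seq was performed on poly(A)-selected RNA of 3 Scr siRNA and 3 Yme1l siRNA cultures of WT MEFs, in stranded libraries. The authors mapped reads to GRCm38 with HISAT2 2.0.4 and assembled transcripts with StringTie 1.3.3 (per the submitters' processing notes and the methods), and deposited raw counts per locus without normalization. The counting program, its use of strand and of reads with several matches are not given in the sources used here. The table holds 51499 loci, of which 635 join several names, and every per-sample column was mapped to a sample by its name (0 unmapped). A second deposited table holds the authors' own comparison from Cuffdiff 2.2.1 (group FPKM, fold changes, p-values) and was not used.

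Counts were tested with edgeR 4.0.16 in R 4.3.3: TMM factors, filterByExpr (at least 10 counts, 15 in total), quasi-likelihood test without covariates, Benjamini-Hochberg adjustment over 14499 loci, threshold 0.05. The biological coefficient of variation was 0.131. The SE is the log2 fold change divided by the square root of F. Library depth was 37260605 to 45205207 counts, and the precision of low loci is limited by their counts. No library was a second count of another (chi-square per degree of freedom 9.99 to 73.8). The methods state that n in MEF experiments counts independent cultures, whereas the labels do not say how separate the cultures of a group were. The p-values measure the spread between these samples, which may be technical in part.

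Coordinates, exon lengths (the union of all annotated exons of a gene) and overlaps came from GENCODE M21 (GRCm38). Near-identical copies were transcripts with at least 97% identity over 200 bases, found with BLAST 2.17.0, and 15 members share exon bases with a gene on the opposite strand. Isoenzyme shares used CPM per kb and exact two-sided permutation tests, computed in Python 3.11.15 with NumPy 2.4.6. Each family held members only, so related genes outside the members, such as *Slc2a10*, *Hkdc1* and *Eno3*, did not enter the shares. Alternatives were DESeq2 1.42.0, limma-voom (limma 3.58.1), other scale factors, filters and thresholds, a replicate block, and fits without each culture in turn. The edgeR step was tested on simulated data.

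Members, lists and tests were chosen with earlier results of these data known. Full values are given for members called with a log2 fold change of at least 0.5 in size and for the member with the highest level per length in each role, and elsewhere for the 4 largest called changes per list without overlap and at a mean log2 CPM of 1 or above. *Pgk1*, *Tpi1* and others are given by mean or change. *Vegfa*, *Slc2a10*, *Pitrm1*, *Spsb2*, *Iffo1*, *Yod1*, *Senp1*, *Apex2*, *Ufsp2* and *Gm7336* were named after their values were seen. One gene that the rule would name is not reported here.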

Additional observations from a re-analysis of the deposited data

How the results depend on the processing

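Across the alternatives, between 7 and 11 members were called higher and between 13 and 19 lower, and the median log2 fold change of the members stayed between −0.20 and −0.09. Leaving out 1 culture gave 8 to 11 members higher and 15 to 19 lower, a threshold of 0.01 gave 7 and 13, and DESeq2 gave 11 and 18. Of 628 values of single members under an alternative, 588 kept their direction and their side of the threshold, 13 lost the call, 21 gained it and 6 changed sign. The changes concerned 13 members: *Tpi1*, *Pfkfb4*, *Egln1* and the minor *Aldoa* locus lost the call in some fits, and *Slc2a3*, *Gpi1*, *Pfkl*, *Gapdh*, *Pgam1* and *Ero1l* gained it. *P4ha1*, *Slc16a3* and *Hif1a*, which were not called, changed sign: the log2 fold change of *P4ha1* was 0.0076 with upper-quartile factors and 0.0207 with a mean of at least 50 counts, and leaving out 1 culture gave −0.0758 to 0.0683 for *P4ha1*, −0.0264 to 0.5661 for *Slc16a3* and −0.0052 to 0.182 for *Hif1a*. The cause was not tested. *Gapdh* had log2 fold changes between 0.26 and 1.46, the latter with near-identical copies added, an alternative chosen after seeing the data, and the cause of its other changes was not tested. With the replicate number as a block, 10 members were higher and 18 lower, with a median of −0.14. The numbers are not known to pair the cultures: the deviations of same-numbered cultures correlated at 0.0409, 0.116 and 0.192, and 2 of the 3 Scr siRNA cultures correlated best with their own number. No scale factor moved the median of all loci by more than 0.03. Isoenzyme shares without division by length kept the direction of the difference. The PFKFB shares include the *Pfkfb2* locus as joined with *Gm29427*. Leaving out 1 culture changed the sign of 6 share differences, which ranged, in percentage points, from −0.9978 to 1.3592 for *Pfkfb2*, −0.516 to 0.496 for *Pfkp*, −0.1096 to 0.425 for *Slc16a1*, −0.425 to 0.1096 for *Slc16a3*, −0.013 to 0.0037 for *Aldoa* and −0.0037 to 0.013 for *Aldoc*. Members under 3 CPM, such as *Slc2a3*, *Slc16a3* and *Aldoc*, are limited by depth.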
